A study of Mus musculus with 72 samples.

Results

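RNA-seq libraries of mouse CD8+ T cells activated for 24 h in glutamine-free medium were compared with libraries of the same kind of cells activated for 24 h with the glutamine antagonist 6-diazo-5-oxo-L-norleucine (DON). The members are the 8 libraries with these labels, 4 per condition, of 52 RNA libraries and 72 samples in the series, and all 16269 genes that passed the filter on low counts, of 55487 in the deposited table. The cells were OT-I splenocytes, which carry a transgenic T cell receptor for SIINFEKL, a peptide of ovalbumin. Red cells were lysed, and the splenocytes were cultured in RPMI with 10% fetal bovine serum. All groups were activated with 10 ng/mL SIINFEKL and 100 IU/mL human interleukin 2 (IL-2). The NoQ group received RPMI made without glutamine. The DON group received complete, glutamine-containing RPMI with 1 µM DON, and the vehicle group complete RPMI without an inhibitor. A further group, given 1 µM CB-839, was part of the fits and of their estimate of the spread, but is not compared here. The protocols name PBS as the vehicle of DON, and the labels give 1 vehicle group without its solvent. They give neither the age and sex of the mice, nor whether the letters A to D mark separate mice or cultures, nor whether the serum still carried glutamine. Each p-value therefore measures the spread between these libraries, which may be technical.

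DON is a reactive analogue of glutamine that blocks many enzymes which take nitrogen from glutamine, among them the amidotransferases of purine, pyrimidine, hexosamine and asparagine synthesis, and also glutaminase. Taking glutamine out of the medium removes the amino acid itself. When an amino acid runs short, uncharged tRNA activates the kinase GCN2, phosphorylation of eIF2α follows, and translation of the transcription factor ATF4 rises, which drives genes for amino acid synthesis, uptake and tRNA charging. Both manipulations are used to ask how T cells depend on glutamine while they grow and divide after activation, and the series was set up to profile how glutamine metabolism shapes CD8+ T cells.

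Libraries held 36612248 to 47508484 counts in NoQ cells, against 25626587 to 43596775 counts in DON cells. The library DON D was the shallowest and stood apart from DON A, B and C: the chi-square per degree of freedom of its counts against theirs was 25.2 to 29.5, against 3.96 to 7.41 among those 3 and 3.87 to 11.2 among the NoQ libraries. Its part in the results was examined by leaving it out. The CD8 T cell markers were present at a summed level of 3509 to 3570 CPM (counts per 1000000 counts of the library) in NoQ and 3546 to 3902 CPM in DON libraries, all 12 of 12 above 0 in every library. Summed B cell markers were 265 to 316 CPM in NoQ and 470 to 669 CPM in DON libraries, most of it Ighm. Pax5, the factor that maintains B cell identity, measured 0.326, 0.412, 2.37 and 0.460 CPM in NoQ libraries, against 0.517, 0.211, 1.77 and 0.808 CPM in DON libraries, and NoQ C was the highest library. Of all genes tested, 30.2% were lower and 28.7% higher in NoQ than in DON cells. Of 12 B cell markers tested, 3 fell in NoQ cells, namely Ighm, Ighd and Spib, near that share, and none rose. Without NoQ C, 7 fell. Summed myeloid markers were 71.9 to 87.5 CPM in NoQ and 60.6 to 91.5 CPM in DON libraries, and NK and erythroid markers summed to at most 2.99 CPM in any of them. The 5 CD4 T cell markers summed to 57.7 to 65.5 CPM in NoQ and 288 to 326 CPM in DON libraries, nearly all of it Ctla4 and Zbtb7b, which CD8 T cells can also express, and Cd4 itself did not pass the filter on low counts. In bulk RNA, fewer cells of a type and less RNA per cell cannot be told apart, and the part of these markers in the results was not tested.

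NoQ and DON cells differed widely at 24 h. At an adjusted p under 0.05 (edgeR, quasi-likelihood, Benjamini-Hochberg), 4667 genes were higher in NoQ than in DON cells (28.7% of the genes tested) and 4910 were lower (30.2%). Changes of at least 2-fold were more often falls: 1809 genes (11.1%) were at least 2-fold lower in NoQ cells and 873 (5.37%) at least 2-fold higher. Without DON D the counts were 4576 higher and 5144 lower, and 928 and 1936 at the 2-fold level. The CPM of the groups did not overlap for 4340 genes with NoQ above DON (26.7%) and 4514 genes with DON above NoQ (27.7%). The median log2 fold change over all genes tested was 0.00, a value that the scaling between libraries sets near 0. With library totals alone it was -0.09, and 3731 genes were higher and 5749 lower. Genes at least 2-fold lower had a median mean level of 0.37 log2 CPM and 29.2% of them were predicted or clone-named genes. Genes at least 2-fold higher had a median of 1.35 log2 CPM and 19.2% such names, against 3.73 log2 CPM and 20.7% over all genes tested.

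Among expressed genes, the largest rises in NoQ cells included 6 genes of the amino acid response, together with the cell cycle inhibitor Cdkn1a and the death gene Bbc3, and the largest falls included 3 genes of the mitosis list. The 12 genes with the largest rise were Cth, Soat2, Izumo1r, Slc7a3, Lta, Anxa3, Atf5, Trib3, Sesn2, Cdkn1a, Aldh1l2 and Bbc3, with log2 fold changes of 3.19 to 4.22. The 12 with the largest fall were Tspan2, Tbc1d4, Nebl, Tnip3, Ube2c, Rab26os, Il7r, Plk1, Atp2b4, Birc5, Ctla4 and Cdca3, with log2 fold changes of -6.53 to -3.27. They were taken from genes with a mean of at least 3 log2 CPM whose groups did not overlap, so the separation of their groups follows from the choice. Ube2c and Rab26os share 22.8% and 15.7% of their exon bases with Tnnc2 and Snord60, so their counts are uncertain.

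**Figure D1:**
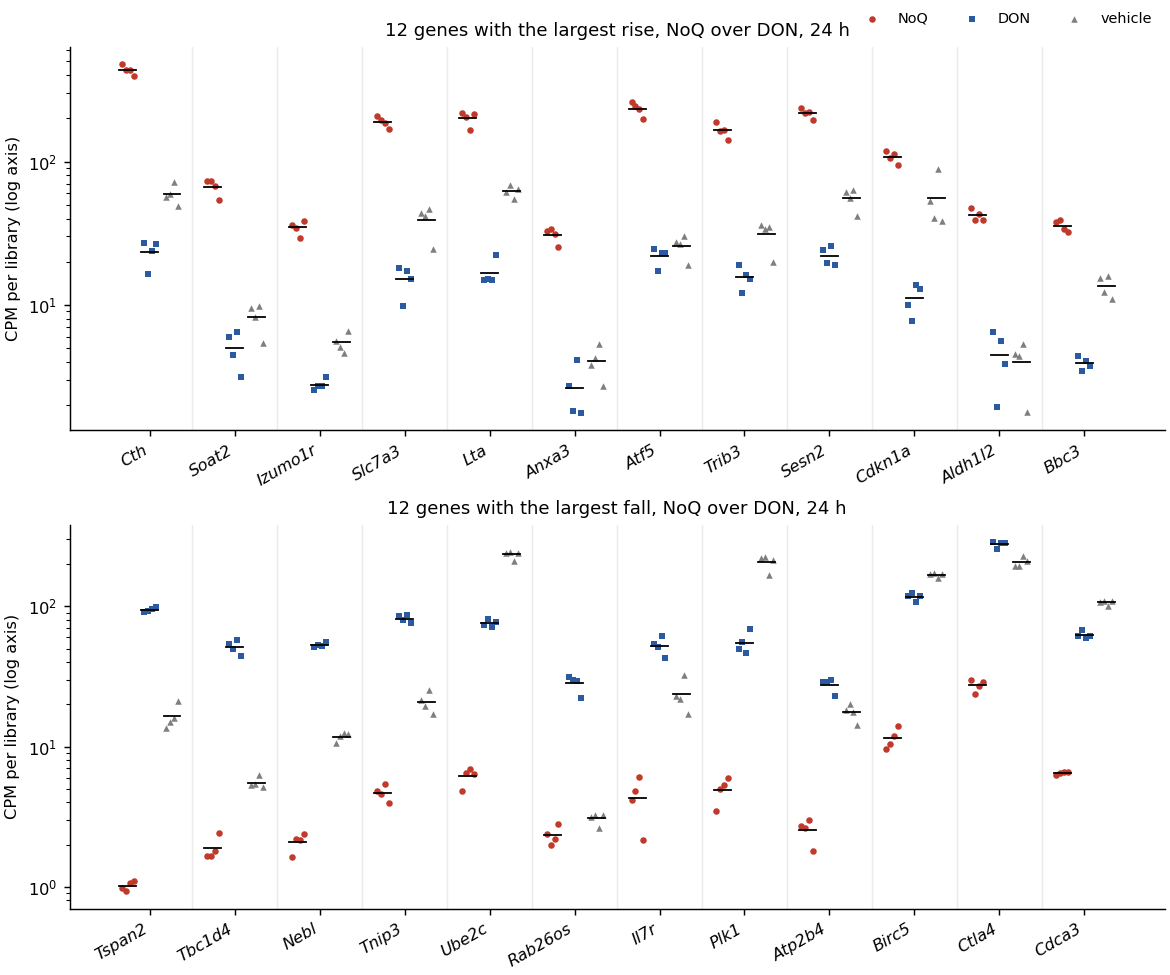
CPM of the 12 genes with the largest rise (top) and the 12 with the largest fall (bottom) in NoQ relative to DON cells at 24 h, on a log axis. Each point is 1 library of NoQ (red circles), DON (blue squares) or vehicle (grey triangles), and bars are means of 4. NoQ and DON points are separate because the genes were chosen for it. Vehicle points lie above both for Ube2c, Plk1, Birc5 and Cdca3 and close to DON for Atf5 and Aldh1l2.

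All 35 tested genes of the amino acid response list rose in NoQ relative to DON cells, 31 of them at least 2-fold, against 28.7% and 5.37% of all genes. Their median log2 fold change was 2.07, and the range ran from 0.51 for the amino acid transporter Slc38a2 to 4.66 for Slc7a11, which imports cystine. Cth, the enzyme that releases cysteine from cystathionine, measured 479, 435, 433 and 394 CPM in NoQ libraries, against 26.9, 16.5, 23.7 and 26.4 CPM in DON libraries. Its log2 fold change was 4.22 ± 0.15 (SE, adjusted p = 1.93e-14). Atf5, a transcription factor translated when eIF2α is phosphorylated, measured 258, 242, 233 and 199 CPM in NoQ libraries, against 24.7, 17.4, 22.9 and 23.1 CPM in DON libraries, with a log2 fold change of 3.40 ± 0.13 (SE, adjusted p = 3.80e-14). Sesn2, which restrains mTORC1 when leucine is short, measured 235, 218, 221 and 196 CPM in NoQ libraries, against 24.01, 19.5, 25.8 and 19.1 CPM in DON libraries, with a log2 fold change of 3.29 ± 0.12 (SE, adjusted p = 2.71e-14). Cth, Atf5 and Sesn2 are among the largest rises, which were chosen for groups that did not overlap. Atf4 itself, the central factor of the response, averaged 806 ± 33.98 CPM in NoQ and 319.9 ± 12.5 CPM in DON cells (SD, n = 4 each), a rise of 1.33 ± 0.05 (SE) on the log2 scale. Trib3, a pseudokinase induced by ATF4, averaged 165 ± 19.04 CPM in NoQ and 15.6 ± 2.82 CPM in DON cells. Aldh1l2, a mitochondrial folate enzyme, averaged 42.1 ± 3.82 CPM in NoQ and 4.45 ± 2.001 CPM in DON cells, and shares 14.1% of its exon bases with D10Wsu102e. Chac1, which degrades glutathione, averaged 18.7 ± 0.554 CPM in NoQ and 3.16 ± 0.609 CPM in DON cells. Ddit3, which encodes CHOP, averaged 28.2 ± 4.74 CPM in NoQ and 7.04 ± 0.926 CPM in DON cells, but its name is carried by overlapping entries and its count is uncertain.

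Asns encodes asparagine synthetase, which takes its nitrogen from glutamine and is itself a target of DON. It measured 356, 323, 332 and 335 CPM in NoQ libraries, against 56.1, 37.4, 49.6 and 45.8 CPM in DON libraries. The NoQ libraries were close to each other and far above every DON library, with a log2 fold change of 2.83 ± 0.15 (SE, adjusted p = 2.12e-11). Vehicle libraries lay between, at 93 ± 17.8 CPM.

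The promoters of the amino acid response genes were searched for the C/EBP-ATF response element written TGATGNAA, on either strand, in RefSeq windows of 300 bases (GRCm38.p6), from 250 before to 50 after each annotated start. It was found in 10 of 35 windows of 29 list genes (28.6%), in 4 of 11 windows of the cytosolic tRNA synthetases (36.4%), and in 1304 of all 32851 windows (3.97%). Windows of genes at least 2-fold higher in NoQ cells held it in 7.69%, and those of genes at least 2-fold lower in 1.84%. The share in windows of all genes tested was 2.29%. The E-box CACGTG was found in 1 of the 35 amino acid response windows (2.86%) and in 4 of 11 tRNA synthetase windows (36.4%), against 7.15% of all windows, and the sterol element searched as TCACNCCAC in 1 of 19 cholesterol windows (5.26%), against 1.24%. A match describes letters in the window and was not shown here to be a bound site. The 3 list members with the smallest adjusted p that held a match in the 150 bases before their start are printed with it, 5′ to 3′ on the gene's strand, with the matched letters in capitals. They are Slc7a11 (chr3:50443614-50443763, minus strand), Herpud1, a gene of protein quality control in the endoplasmic reticulum (chr8:94386279-94386428, plus strand), and Asns (chr6:7693210-7693359, minus strand).
Slc7a11: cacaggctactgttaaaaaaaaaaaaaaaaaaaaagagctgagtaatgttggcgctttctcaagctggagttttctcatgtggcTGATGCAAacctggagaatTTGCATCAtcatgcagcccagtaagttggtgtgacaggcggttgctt
Herpud1: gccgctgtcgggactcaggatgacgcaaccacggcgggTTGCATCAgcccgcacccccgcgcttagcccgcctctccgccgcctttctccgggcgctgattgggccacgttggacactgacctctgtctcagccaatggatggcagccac
Asns: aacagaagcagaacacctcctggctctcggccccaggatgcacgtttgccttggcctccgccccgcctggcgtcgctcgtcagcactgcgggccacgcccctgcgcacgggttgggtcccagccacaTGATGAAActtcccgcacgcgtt
Slc7a11 held a pair of matches, the first on the gene's strand and the second on the other. Its transcript measured 15.2, 14.1, 13.2 and 13.96 CPM in NoQ libraries, against 0.494, 0.329, 0.687 and 0.772 CPM in DON libraries, and the groups were far apart. Herpud1 averaged 127 ± 7.01 CPM in NoQ and 52.8 ± 2.53 CPM in DON cells and rose by 1.27 on the log2 scale.

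Genes that load amino acids onto tRNA are given by compartment, beside 28.7% of all genes higher and 30.2% lower. Of 19 cytosolic tRNA synthetases, 14 rose and none fell in NoQ cells, with a median log2 fold change of 0.90. Lars, the leucyl-tRNA synthetase, averaged 782 ± 32.5 CPM in NoQ and 218 ± 22.2 CPM in DON cells and rose by 1.84 on the log2 scale. Tars rose by 1.38, Nars by 1.53 and Iars by 1.16. Those 3 genes were highest in DON D among the DON libraries, and they stayed called without it. Of 17 mitochondrial tRNA synthetases, 10 fell and 1, Rars2 at a log2 fold change of 0.50, rose, with a median of -0.26. The difference between the lists was not tested. Mars2 fell by 0.95 and Pars2 by 0.96 on the log2 scale. Without DON D, 13 cytosolic synthetases rose and 1 fell.

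Amino acid transporters rose in 12 of 21 cases and fell in 4, with a median log2 fold change of 0.51, beside 28.7% of all genes higher and 30.2% lower. Slc7a3, a cationic amino acid transporter, measured 206, 194, 186 and 168 CPM in NoQ libraries, against 17.9, 9.79, 17.2 and 15.2 CPM in DON libraries. Slc1a5, the main glutamine importer of activated T cells, averaged 1200.0 ± 25.9 CPM in NoQ and 391 ± 2.94 CPM in DON cells. Slc3a2, the heavy chain that pairs with the light chains LAT1 and xCT, averaged 731 ± 50.8 CPM in NoQ and 231 ± 14.4 CPM in DON cells. Slc7a1 rose by 1.33 on the log2 scale. Many of these transporters belong to the amino acid response list as well, so the lists are not separate evidence. In serine synthesis and folate metabolism 8 of 14 genes rose and 5 fell, the falls near the share of all genes. The 3 enzymes of serine synthesis rose together: Phgdh by 1.32, Psat1 by 1.20 and Psph by 1.34 on the log2 scale. Among glutaminase, glutamate and proline enzymes, 6 of 13 rose and 5 fell. Gpt2, which moves nitrogen between glutamate and alanine, rose by 2.84, and Pycr1 and Aldh18a1 of proline synthesis by 2.24 and 1.13. Oat, which makes glutamate semialdehyde from ornithine, fell by 0.59.

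Most of the enzymes that DON is known to block differed little as transcripts. Of 10 glutamine amidotransferase genes, 1 rose, Asns, and 3 fell, against 28.7% of all genes higher and 30.2% lower, so the falls were at the share of all genes. Gfpt2 fell by 2.73 on the log2 scale at a low level, 0.167 ± 0.0485 CPM in NoQ and 1.14 ± 0.151 CPM in DON cells, Ctps2 fell by 0.45, and Gfpt1, the first enzyme of hexosamine synthesis, fell by 0.15. The Gfpt1 call was lost with no filter on low counts and in a fit of all 52 RNA libraries (adjusted p = 0.0945 and 0.237). Ppat, which opens purine synthesis, averaged 164 ± 9.33 CPM in NoQ and 183 ± 17.2 CPM in DON cells with adjusted p = 0.0593. Cad, which opens pyrimidine synthesis, averaged 492 ± 17.7 CPM in NoQ and 509.8 ± 16.2 CPM in DON cells with adjusted p = 0.517, and Pfas, Gmps, Ctps and Nadsyn1 had log2 fold changes of 0.04, 0.10, -0.05 and -0.08 that did not pass. Ppat passed as a fall under 10 of the 16 other settings tried, with log2 fold changes of -0.24 to -0.15, and without DON D Gmps rose by 0.20 (adjusted p = 0.0420). Purine genes fell in 9 of 17 cases and rose in 2, none by 2-fold. Odc1, which opens polyamine synthesis, averaged 649 ± 20.9 CPM in NoQ and 849 ± 70.6 CPM in DON cells and fell by 0.39.

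**Figure D2:**
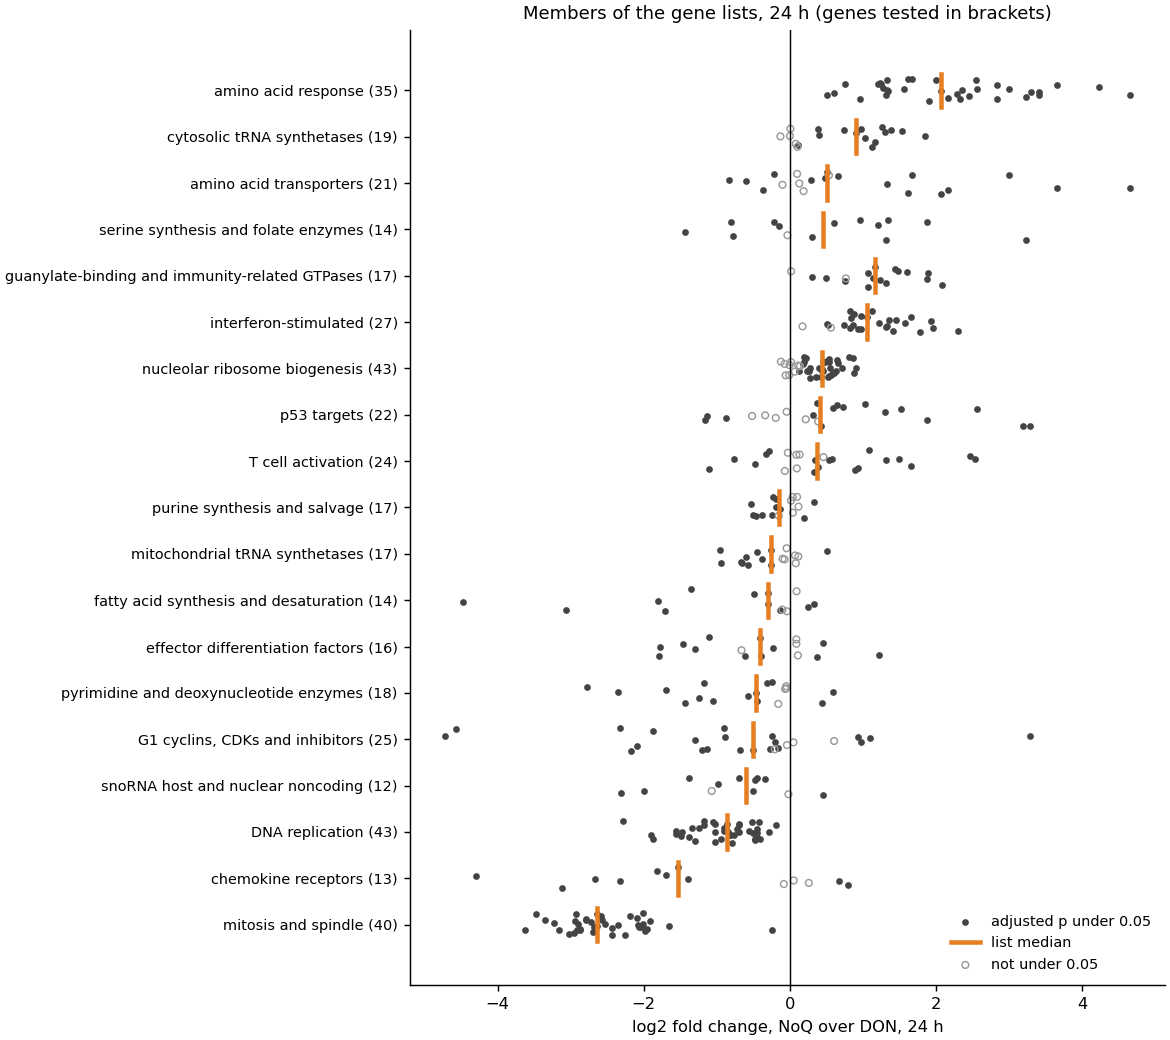
Log2 fold change, NoQ over DON, of each tested member of 19 gene lists at 24 h. Filled points passed the adjusted p of 0.05, open points did not, and orange bars are list medians. Amino acid response genes lie to the right of 0 and genes of DNA replication and mitosis to its left, without exception.

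Genes of cell division were lower in NoQ than in DON cells throughout. All 40 tested genes of mitosis and the spindle fell, 39 at least 2-fold, with a median log2 fold change of -2.64, against 30.2% and 11.1% of all genes. The exception to the 2-fold fall was Pttg1, securin, at -0.25. Ube2c, the ubiquitin-conjugating enzyme of the anaphase-promoting complex, measured 4.79, 6.44, 6.95 and 6.36 CPM in NoQ libraries, against 74.1, 80.7, 71.7 and 77.4 CPM in DON libraries. Ube2c was chosen among genes whose groups did not overlap, and its log2 fold change was -3.62 ± 0.08 (SE, adjusted p = 5.27e-17). Plk1, the kinase that drives mitotic entry and spindle assembly, measured 3.45, 4.99, 5.30 and 5.999 CPM in NoQ libraries, against 49.7, 55.4, 46.7 and 68.9 CPM in DON libraries, with a log2 fold change of -3.47 ± 0.15 (SE, adjusted p = 2.32e-13). Birc5, survivin of the chromosomal passenger complex, averaged 11.4 ± 1.90 CPM in NoQ and 117 ± 7.01 CPM in DON cells, and Cdca3, which is not in the list and promotes the degradation of the mitotic inhibitor Wee1, averaged 6.47 ± 0.172 CPM in NoQ and 62.5 ± 3.83 CPM in DON cells. Cenpa, the centromeric histone, fell by 2.69, the cyclin Ccnb2 by 3.16, and the proliferation marker Mki67, at 61.9 ± 12.8 CPM in NoQ and 477 ± 69.98 CPM in DON cells, by 2.95. Vehicle cells were higher than both: Ube2c averaged 235 ± 15.9 CPM and Plk1 206 ± 26.6 CPM.

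DNA replication genes fell in 43 of 43 cases, 17 of them at least 2-fold, with a median of -0.87. Over all genes tested, 30.2% were lower, 11.1% at least 2-fold lower and 28.7% higher. Clspn, which carries the replication checkpoint signal, measured 21.3, 22.5, 22.4 and 30.7 CPM in NoQ libraries, against 109.5, 122, 111 and 129.8 CPM in DON libraries, and the groups did not overlap. Lig1, the replicative DNA ligase, fell by 1.55, Ticrr of origin firing by 1.90, Rfc5 of the clamp loader by 1.33 and Mcm2 of the helicase by 0.46. Enzymes of deoxynucleotide supply went with them: of 18 pyrimidine and deoxynucleotide genes, 12 fell, 7 at least 2-fold, and 2 rose. Rrm2, the regulated subunit of ribonucleotide reductase, measured 47.3, 50.5, 56.9 and 65.7 CPM in NoQ libraries, against 266, 273, 258 and 325 CPM in DON libraries. Tk1, thymidine kinase, averaged 17.9 ± 2.16 CPM in NoQ and 122 ± 7.21 CPM in DON cells, Tyms fell by 1.69 and Rrm1 by 1.24. Of 49 replication-dependent histones 13 rose and 8 fell, with a median of 0.34, and the rises were near the share of all genes (28.7%). Histone mRNAs of this class lack a poly(A) tail and their genes are near-identical copies, so their counts are uncertain. Of the G1 regulators 17 of 25 fell and 4 rose. The lowest and the highest log2 fold change of that list, -4.72 and 3.28, were both those of CDK inhibitors. Ccne1, which partners CDK2, fell by 1.30, E2f2 by 2.09 and E2f8 by 2.17, while Ccnd2, a D-type cyclin induced early after activation, rose by 0.93, with 1028 ± 17.6 CPM in NoQ and 540.5 ± 11.7 CPM in DON cells, and its kinase partner Cdk6 rose by 1.09.

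Promoters of the mitosis genes were described in the same way, with a pair of motifs added after their falls had been seen: CCAAT, the box bound by NF-Y, and TTTGAA, the core of the cell cycle homology region. CCAAT was found on either strand in 25 of 33 windows (75.8%), against 37.4% of all windows, and TTTGAA also in 25 of 33 (75.8%), against 17.9%. In DNA replication windows the shares were 58.5% and 12.2%, and in windows of all genes tested 37.9% and 12.5%. Neither motif was high in mitosis windows alone: CCAAT stood in 84.2% of cholesterol and 54.3% of amino acid response windows, and TTTGAA in 5 of 11 windows of the immunity-related GTPases (45.5%). The 3 mitosis genes with the smallest adjusted p that held a CCAAT box in the 150 bases before the start are printed with the boxes in capitals, read as ATTGG where they lie on the other strand. They are Ube2c (chr2:164769779-164769928, plus strand), Cenpa (chr5:30666736-30666885, plus strand) and Ccnb2 (chr9:70421555-70421704, minus strand).
Ube2c: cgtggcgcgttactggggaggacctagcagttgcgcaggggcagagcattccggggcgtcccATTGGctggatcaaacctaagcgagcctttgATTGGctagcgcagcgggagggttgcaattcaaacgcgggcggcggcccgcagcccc
Cenpa: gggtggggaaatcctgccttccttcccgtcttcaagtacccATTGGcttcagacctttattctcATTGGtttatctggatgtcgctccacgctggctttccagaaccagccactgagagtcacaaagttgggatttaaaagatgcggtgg
Ccnb2: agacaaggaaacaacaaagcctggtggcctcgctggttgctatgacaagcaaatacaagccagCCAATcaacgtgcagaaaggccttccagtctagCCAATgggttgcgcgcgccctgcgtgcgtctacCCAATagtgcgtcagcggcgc

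Genes of growth arrest and death moved in both directions. Of 22 p53 target genes, 13 rose and 3 fell, with a median of 0.41, against 28.7% of all genes higher and 30.2% lower. Cdkn1a, the CDK inhibitor p21, measured 118, 105, 113 and 94.4 CPM in NoQ libraries, against 9.98, 7.75, 13.8 and 12.8 CPM in DON libraries, with a log2 fold change of 3.28 ± 0.24 (SE, adjusted p = 1.28e-08). Its exons overlap another entry by 7.68%. Zmat3 rose by 1.87, Aen, a nuclease, by 0.72 and Rrm2b, the p53-induced subunit of ribonucleotide reductase, by 0.59, whereas Sesn1 fell by 1.14. Among 25 genes of the BCL2 family and the death receptors, 13 rose and 8 fell, the falls near the share of all genes. The BH3-only genes Bbc3 and Bcl2l11 moved apart. Bbc3, which encodes PUMA, measured 38.04, 38.96, 33.7 and 32.3 CPM in NoQ libraries, against 4.41, 3.43, 4.04 and 3.75 CPM in DON libraries, with a log2 fold change of 3.19 ± 0.11 (SE, adjusted p = 1.26e-14). Bcl2l11, which encodes BIM, measured 13.8, 16.3, 14.7 and 19.6 CPM in NoQ libraries, against 114, 115, 115 and 106 CPM in DON libraries, with a log2 fold change of -2.81 ± 0.08 (SE, adjusted p = 1.15e-15). The groups of Bcl2l11 did not overlap, and Bbc3 was chosen among genes whose groups did not. Cflar, an inhibitor of caspase 8 activation, rose by 1.38. Of 19 NRF2 target and redox genes 13 rose and 2 fell, among them Hmox1 with a rise of 2.33 and Srxn1 with 2.71, beside Slc7a11.

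Interferon-response genes were higher in NoQ cells. Of 27 interferon-stimulated genes 25 rose, 14 at least 2-fold, and none fell, with a median log2 fold change of 1.05, against 28.7% of all genes higher and 5.37% at least 2-fold higher. The others were Oasl1 and Cmpk2, at 0.56 and 0.17. Isg20, an exonuclease with antiviral activity, averaged 12.7 ± 1.73 CPM in NoQ and 3.30 ± 0.751 CPM in DON cells, Parp14 148 ± 12.4 CPM in NoQ and 59.02 ± 1.42 CPM in DON cells and Trim30a 237 ± 36.1 CPM in NoQ and 109 ± 3.53 CPM in DON cells. Of 17 guanylate-binding and immunity-related GTPases, which attack the vacuoles of intracellular pathogens and are induced by interferon γ, 15 rose and none fell, with a median of 1.17. Gbp3 and Gbp11 were at 0.01 and 0.76. Gbp9 measured 129, 122, 127 and 106 CPM in NoQ libraries, against 28.98, 25.6, 30.5 and 28.99 CPM in DON libraries. Irgm1 measured 361, 358, 368 and 316 CPM in NoQ libraries, against 118, 111, 119 and 117 CPM in DON libraries, with a log2 fold change of 1.59 ± 0.06 (SE, adjusted p = 2.86e-14). Neither gene's groups overlapped. Tgtp2 rose by 1.87, but members of this family are near-identical copies and its count is uncertain. The Ifng transcript did not go the same way: it averaged 90.7 ± 16.3 CPM in NoQ and 129 ± 14.5 CPM in DON cells and fell by 0.51 (adjusted p = 0.0120). That call was lost with no filter on low counts and in the fit of all 52 RNA libraries (adjusted p = 0.0674 and 0.0557), and Ifng shares 25.9% of its exon bases with Gm49751. The core of the interferon-stimulated response element, searched on either strand as GAAA, a gap of any 2 bases and a second GAAA, was found in 12 of 24 windows of the interferon-stimulated genes (50%) and 9 of 11 windows of the GTPases (81.8%), against 3.44% of all windows. The stretches of 150 bases before the start are printed for 2 genes, with the match in capitals. With the lists pooled, these members had the smallest adjusted p among those that held a match there. They are Irgm1 (chr11:48871421-48871570, minus strand) and Tgtp2 (chr11:49064213-49064362, minus strand).
Irgm1: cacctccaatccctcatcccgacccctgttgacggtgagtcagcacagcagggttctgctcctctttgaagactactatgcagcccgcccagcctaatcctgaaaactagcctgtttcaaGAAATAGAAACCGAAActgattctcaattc
Tgtp2: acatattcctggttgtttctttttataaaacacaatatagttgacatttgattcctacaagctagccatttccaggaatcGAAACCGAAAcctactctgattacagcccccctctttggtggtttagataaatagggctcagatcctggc
In Irgm1 a pair of matches overlapped.

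Lipid and growth genes differed by pathway. Over all genes tested, 28.7% were higher in NoQ cells, 30.2% lower and 11.1% at least 2-fold lower. Of 14 fatty acid synthesis and desaturation genes 9 fell, 5 at least 2-fold, and 2 rose. The desaturases led: Scd1 measured 0.0272, 0.325, 0.330 and 0.179 CPM in NoQ libraries, against 4.74, 4.81, 4.18 and 7.05 CPM in DON libraries, near absent in NoQ cells, and Scd2 averaged 70.1 ± 5.43 CPM in NoQ and 244 ± 17.4 CPM in DON cells and fell by 1.80. Fads2 measured 3.07, 1.97, 2.64 and 2.48 CPM in NoQ libraries, against 19.9, 22.8, 18.8 and 23.04 CPM in DON libraries, and the elongase Elovl6 fell by 1.71. No NoQ library reached a DON library for these genes. Of 22 cholesterol genes 12 fell and 3 rose, mostly by less than 2-fold: Stard4, a sterol carrier, fell by 1.12 and Dhcr7, the last step of synthesis, by 0.80. Soat2, which esterifies cholesterol, is not in that list. It measured 73.7, 72.7, 66.97 and 54.2 CPM in NoQ libraries, against 5.98, 4.48, 6.51 and 3.16 CPM in DON libraries, and rose by 3.70. Ribosome biogenesis in the nucleolus was higher in NoQ cells by a small amount: 34 of 43 genes rose, none by 2-fold, and none fell, with a median of 0.43. Nop14 rose by 0.91, Heatr1 by 0.65, Polr1b, a subunit of RNA polymerase I, by 0.63, and Pes1 by 0.59. Scaled by library totals alone, 2 of the 43 fell. Hosts of small nucleolar RNAs and nuclear noncoding RNAs fell in 9 of 12 cases, with Malat1 the only one to rise, by 0.46. Neat1, the scaffold of paraspeckles, measured 35.7, 35.1, 41.8 and 31.5 CPM in NoQ libraries, against 152, 135, 149 and 139 CPM in DON libraries, with a log2 fold change of -1.99 ± 0.07 (SE, adjusted p = 1.36e-14). Dancr and Snhg8 fell by 2.31 and 1.38, and both overlap the small nucleolar RNAs they host.

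Effector genes of CD8 T cells gave no single direction. The shares of all genes tested were 28.7% higher, 5.37% at least 2-fold higher and 30.2% lower in NoQ cells. Of 10 granzyme and perforin genes 5 rose, 2 at least 2-fold, and 1 fell. Gzmf and Gzmm, granzymes F and M, rose by 2.24 (adjusted p = 0.0158, groups overlapping) and 1.70. The call of Gzmf was lost without DON C or without NoQ C (adjusted p = 0.0536 and 0.124). Gzmb, granzyme B, measured 2132, 2226, 2586 and 1365 CPM in NoQ libraries, against 2110.0, 2103, 2045 and 1789 CPM in DON libraries. The groups overlapped, the log2 difference was 0.05 ± 0.15 (SE) and the adjusted p was 0.816. Prf1, perforin, averaged 27.2 ± 1.67 CPM in NoQ and 38.2 ± 5.47 CPM in DON cells and was the one that fell, by 0.49. Among 19 effector cytokine genes 8 rose and 7 fell, the falls near the share of all genes. Lta, lymphotoxin α, measured 219, 204, 166 and 214 CPM in NoQ libraries, against 14.8, 15.1, 14.97 and 22.3 CPM in DON libraries. DON D was the highest of the DON libraries. Lta was chosen among genes whose groups did not overlap, and its log2 fold change was 3.59 ± 0.12 (SE, adjusted p = 5.73e-15). Tnf rose by 1.18 and Il2 by 0.39, whereas Fasl, the ligand of the death receptor Fas, fell by 2.42. Of 8 chemokines 4 rose and 1 fell: Ccl4 and Ccl9 rose by 1.17 and 2.67, and Ccl22 fell by 2.25. Ccl22 was low, at 0.153 to 0.721 CPM in NoQ libraries. Of 24 activation genes 13 rose and 5 fell. Egr1, Egr2 and Irf4, transcription factors induced by the T cell receptor, rose by 2.47, 1.49 and 1.08, and Il2ra, the high-affinity IL-2 receptor chain, rose by 0.94, with 854 ± 33.4 CPM in NoQ and 447 ± 10.98 CPM in DON cells. The cytokine receptor chains Il12rb1 and Il15ra rose by 2.00 and 1.28. Effector differentiation factors fell in 9 of 16 cases and rose in 3: Tbx21, T-bet, rose by 1.22, while Bhlhe40 fell by 1.11 and Stat4 by 1.46. Stat4 shares 26.7% of its exon bases with Gm28177.

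Some surface receptors were among the largest falls, though their lists as wholes moved in both directions: 8 of 20 cytokine receptors rose and 6 fell, and 5 of 16 inhibitory receptor and Tox genes rose and 6 fell, shares near those of all genes (28.7% higher, 30.2% lower). Il7r, the receptor chain for the survival cytokine IL-7, measured 4.19, 4.83, 6.04 and 2.14 CPM in NoQ libraries, against 53.9, 51.3, 61.5 and 42.5 CPM in DON libraries, with a log2 fold change of -3.59 ± 0.25 (SE, adjusted p = 1.82e-09). Ctla4, an inhibitory receptor, measured 29.9, 23.6, 27.1 and 29.02 CPM in NoQ libraries, against 287, 257, 282 and 281 CPM in DON libraries, with a log2 fold change of -3.34 ± 0.07 (SE, adjusted p = 3.92e-17). Both receptors were chosen among genes whose groups did not overlap. Tspan2, a tetraspanin, showed the largest fall of the named genes: it measured 0.979, 0.932, 1.07 and 1.10 CPM in NoQ libraries, against 91.6, 92.1, 96 and 99.02 CPM in DON libraries, with a log2 fold change of -6.53 ± 0.15 (SE, adjusted p = 4.45e-17). Chemokine receptors fell in 8 of 13 cases, each at least 2-fold, against 11.1% of all genes at least 2-fold lower, and 2 rose, among them Ccr2 by 0.79. Ccr6 fell by 4.30 at a low level, Ccr8 by 3.12, Cxcr3, which guides effector cells to inflamed tissue, by 1.70 and Ccr4 by 1.39. Klf2, the factor that maintains T cell recirculation, averaged 1.88 ± 0.407 CPM in NoQ and 19.1 ± 5.17 CPM in DON cells and fell by 3.37. Of 21 naive and memory genes 11 fell and 7 rose, with Actn1 and Myb lower by 1.23 and 1.48 and Foxp1 higher by 1.21. Among the inhibitory receptors, Pdcd1, PD-1, rose by 0.66, Cd274, PD-L1, by 1.39, and Tigit fell by 0.59. Lag3 averaged 361 ± 2.41 CPM in NoQ and 373 ± 19.1 CPM in DON cells (adjusted p = 0.631), and Havcr2 was low, at 0.906 ± 0.804 CPM in NoQ and 0.850 ± 0.399 CPM in DON cells. The markers of the lineage itself also differed: Cd8a measured 389, 398, 352 and 416 CPM in NoQ libraries, against 831, 866, 803 and 869 CPM in DON libraries and fell by 1.11, Cd8b1 fell by 0.79, and Cd5, a negative regulator of the receptor, measured 791, 779.6, 786 and 802 CPM in NoQ libraries, against 158, 157, 144 and 171 CPM in DON libraries and rose by 2.32. Zbtb7b, the factor of CD4 lineage commitment, rose by 2.64, with 30.4 ± 4.62 CPM in NoQ and 4.81 ± 0.953 CPM in DON cells. Summed B cell markers were 265 to 316 CPM in NoQ and 470 to 669 CPM in DON libraries, and their part in these differences was not tested.

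Tbc1d4, a Rab GTPase activator that holds glucose transporters inside the cell, measured 1.66, 1.65, 1.79 and 2.42 CPM in NoQ libraries, against 54.04, 49.9, 57.95 and 44.2 CPM in DON libraries. Nebl, nebulette of the actin cytoskeleton, averaged 2.09 ± 0.320 CPM in NoQ and 52.97 ± 2.17 CPM in DON cells, Tnip3, of a family of inhibitors of NF-κB, 4.70 ± 0.595 CPM in NoQ and 81.8 ± 4.87 CPM in DON cells, and Atp2b4, a calcium pump of the plasma membrane, 2.54 ± 0.520 CPM in NoQ and 27.6 ± 3.10 CPM in DON cells. Among the rises, Izumo1r, a folate receptor family member found on anergic and regulatory T cells, measured 36.3, 34.3, 29.5 and 38.6 CPM in NoQ libraries, against 2.54, 2.72, 2.73 and 3.12 CPM in DON libraries, and Anxa3, an annexin, averaged 30.7 ± 3.86 CPM in NoQ and 2.61 ± 1.11 CPM in DON cells.

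Both conditions were also set against vehicle cells of 24 h. These comparisons share the 4 vehicle libraries, so they are given side by side only. NoQ cells had 4888 genes higher (30%) and 4694 lower (28.9%) than vehicle, and DON cells 4567 higher (28.1%) and 4866 lower (29.9%). Changes of at least 2-fold were 1318 higher (8.1%) and 1142 lower (7.02%) for NoQ, and 1692 higher (10.4%) and 495 lower (3.04%) for DON. In the amino acid response list the median log2 fold change over vehicle was 1.36 for NoQ, with 34 of 35 genes higher and none lower, and -0.68 for DON, with 1 higher and 29 lower. Asns stood at 1.85 for NoQ and -0.98 for DON, Cth at 2.88 and -1.34, and Atf5 at 3.18 and -0.22, the DON value not passing except with all 52 libraries (-0.29, adjusted p = 0.0304). In the interferon-stimulated list the medians were 0.85 for NoQ and -0.28 for DON, and in nucleolar ribosome biogenesis -0.11 for NoQ and -0.53 for DON. Mitosis genes had medians of -3.51 for NoQ and -0.82 for DON, and DNA replication genes -0.96 and -0.11. Plk1 stood at -5.38 for NoQ and -1.91 for DON, Clspn at -2.18 and 0.11, the DON value not passing except with library totals alone (0.30, adjusted p = 0.00421). Tspan2 stood at -4.00 for NoQ and 2.53 for DON, Il7r at -2.44 and 1.15, Tbc1d4 at -1.56 and 3.22, and Bcl2l11 at -1.85 and 0.96: the large falls between NoQ and DON in these genes combined a lower level than vehicle in NoQ cells with a higher one in DON cells. Ifng was below vehicle in both, at -2.67 for NoQ and -2.16 for DON, as were Gzmb at -1.23 and -1.27 and Prf1 at -2.66 and -2.18. Neat1 was above vehicle in both, at 1.79 and 3.78.

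**Figure D3:**
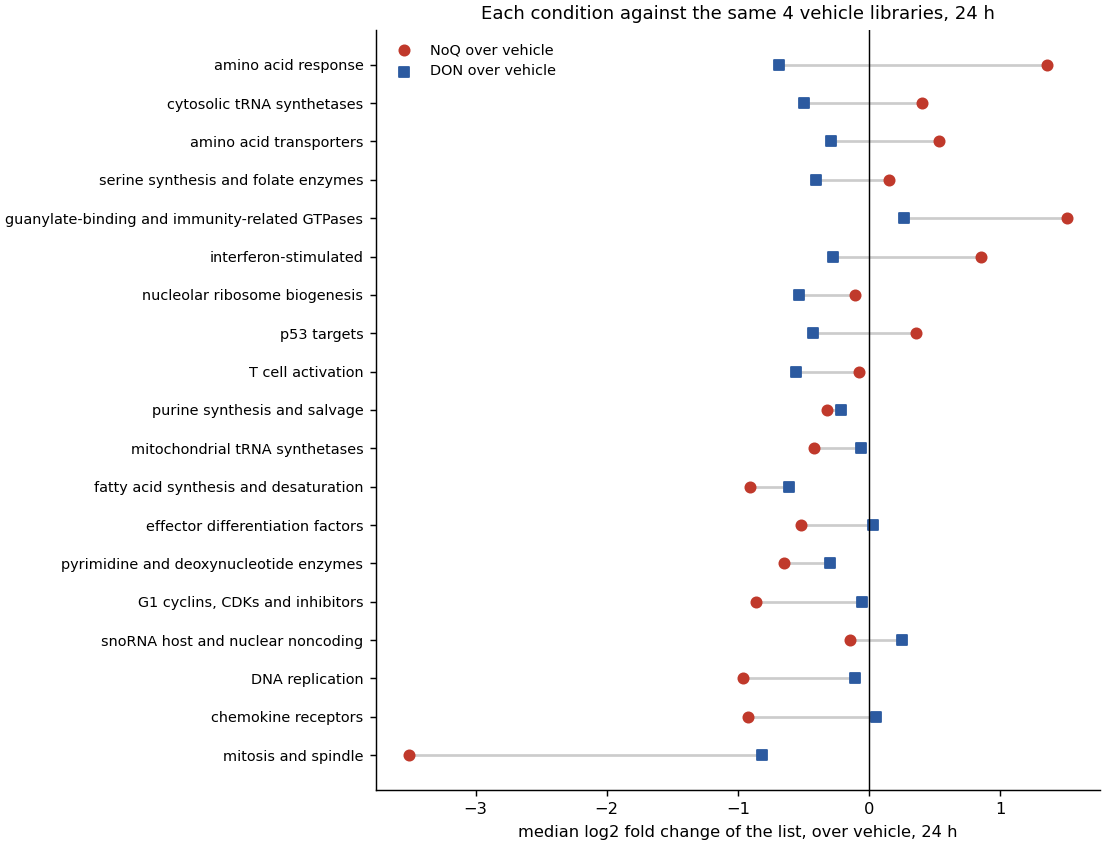
Median log2 fold change over vehicle at 24 h of 19 gene lists, for NoQ (red circles) and DON (blue squares), computed with the same 4 vehicle libraries. The amino acid response lies at 1.36 for NoQ and -0.68 for DON, and mitosis at -3.51 for NoQ and -0.82 for DON.

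The same pair of conditions was also sequenced at 48 h, from other libraries. There 5589 genes were higher in NoQ than in DON cells (34.6% of 16173 tested) and 5513 lower (34.1%). Of the genes called higher at 24 h and tested at both times, 3220 were called higher at 48 h too, which is 70.5% of those called at 24 h and 58% of those called at 48 h, and 331 were called lower. Of the genes called lower at 24 h, 3091 were called lower again (64.2% of 24 h and 60.9% of 48 h calls) and 682 were called higher. The difference itself changed between the times, by a test of the interaction, with a more positive difference at 48 h than at 24 h for 4151 genes (24.1% of 17257) and a more negative one for 3016 (17.5%), 7167 genes or 41.5% in all.

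Of all genes tested at 48 h, 34.6% were higher and 34.1% lower in NoQ cells, and the interaction was positive for 24.1% and negative for 17.5%. Amino acid response genes were higher in NoQ cells at 48 h in 35 of 35 cases, with a median of 2.77, and the interaction was positive for 23 and negative for 1. Trib3 averaged 259 ± 5.93 CPM in NoQ and 3.98 ± 0.262 CPM in DON cells at 48 h, and its log2 fold change was larger than at 24 h by 2.64. Cth was larger by 1.52 and Asns by 1.06. Mitosis genes went the other way from 24 h: 22 of 40 were higher in NoQ cells and 8 lower at 48 h, with a median of 0.20, and the interaction was positive for all 40. DNA replication genes were higher in 31 of 43 cases and lower in 1, with a positive interaction in all 43. Plk1 averaged 129 ± 7.68 CPM in NoQ and 102 ± 4.50 CPM in DON cells at 48 h, and Ube2c 166 ± 6.75 CPM in NoQ and 186 ± 7.96 CPM in DON cells. The 48 h difference of Ube2c did not pass with no filter on low counts, without DON A, NoQ C or NoQ D of 48 h, or in the fit of all 52 RNA libraries (log2 fold changes of -0.16 to -0.10, adjusted p = 0.0526 to 0.779, edgeR). Replication-dependent histones were higher in 40 of 48 cases and lower in 3. Of the 6 leading rises, Cth and Slc7a3 had larger log2 fold changes at 48 h, Soat2 and Izumo1r smaller ones, and Lta and Anxa3 had interactions of -0.19 and 0.53 that did not pass. Without DON D the interaction of Lta was -0.34 and passed (adjusted p = 0.0331, edgeR). Izumo1r averaged 56.5 ± 3.73 CPM in NoQ and 38.95 ± 3.36 CPM in DON cells at 48 h. Of the 6 leading falls, Tspan2, Tbc1d4, Tnip3 and Ube2c were smaller falls at 48 h, Rab26os a larger one, and Nebl, with 1.67 ± 0.166 CPM in NoQ and 40.5 ± 3.48 CPM in DON cells, had an interaction of 0.08 that did not pass.

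**Figure D4:**
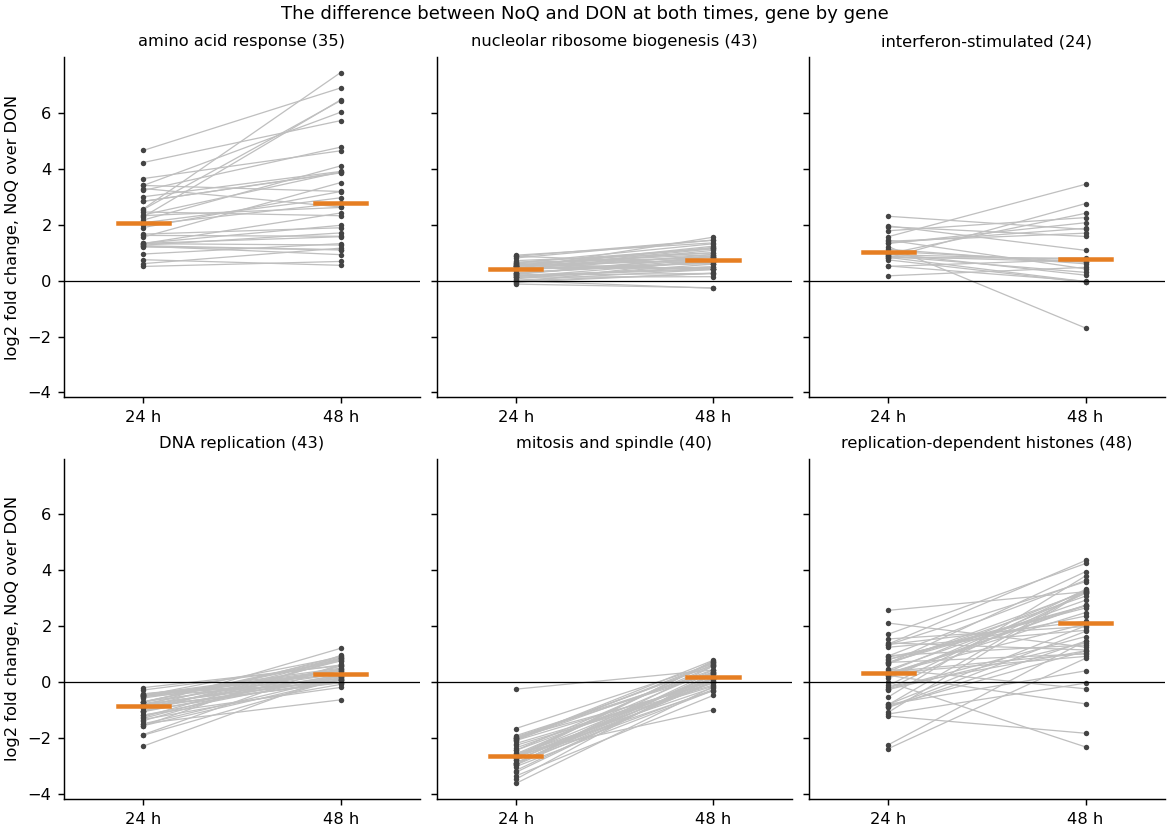
Log2 fold change, NoQ over DON, at 24 h and 48 h for members of 6 gene lists tested at both times (numbers in the panel titles). Each line joins 1 gene, and orange bars are medians over the genes drawn. Amino acid response genes lie above 0 at both times, whereas all DNA replication and mitosis genes lie below 0 at 24 h and most lie near or above 0 at 48 h.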

How the data were processed

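The authors deposited whole-number counts per gene, made by featureCounts 2.0.1, which counted read pairs on exons of GENCODE M25 (mm10), per the file headers. The labels' protocols name a stranded kit and the header no strand option, so reads of overlapping or antisense genes cannot be told apart. FastQC, STAR, Bowtie2, MACS2, featureCounts and deepTools stand in the submitters' processing notes, and their roles are not given in the sources used here. All 37 mitochondrial genes were at 0 in every library.

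Genes were filtered by edgeR 4.0.16 (filterByExpr, R 4.3.3) and scaled by TMM. The 16 libraries of 24 h, from vehicle, CB-839, DON and NoQ cells, shared 1 quasi-likelihood fit with robust dispersion (common biological coefficient of variation 0.084). The 16 of 48 h shared another, and the interaction was fitted in both times' 32 libraries. Calls used an adjusted p under 0.05, and "at least 2-fold" a log2 fold change of 1 or more in size. CPM use TMM-scaled library sizes, except marker sums, which use library totals. The script was tested on simulated data with few changed genes, the same dispersion for every gene and no deviating library. That test does not cover the wide differences and the deviating library of these data. Alternatives were RLE scaling, library totals, no filter, DESeq2 1.42.0, a replicate block, fewer or more libraries in the fit, and leaving out each library.

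Members and gene lists were chosen with earlier results of these data known. The 50 lists held 1137 entries, of which 1107 were found and 1068 tested. Genes named are the 12 largest rises and falls, for each list the 4 members or fewer of smallest adjusted p, and a panel of metabolic and effector genes. The extremes of lists, the members outside a near-complete count and the marker genes were added after their values were seen. Same-lettered NoQ and DON libraries deviated together with r of 0.15, 0.12, 0.35 and 0.36 over 9100 genes with a mean of at least 3 log2 CPM, and of 0.04, 0.08, 0.28 and 0.15 over all genes tested, with the pairing taken from the letters in the titles. Promoter sequences are from RefSeq (GRCm38.p6), and windows of a chromosome not reported here were left out when the printed stretches were picked. Peak files were not used, and some genes are not reported here.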

Additional observations from a re-analysis of the deposited data

Results flagged for a closer look

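In 20 of 300 groups of 4 libraries (150 named genes in NoQ and in DON cells), 1 library stood far from the other 3. Chance flags about 1 in 20 such groups. Of these, 11 were DON D. It was the highest DON library for Lta (22.3 CPM, against 14.8 to 15.1 CPM in the others), Nars (505 CPM), Tars (236 CPM), Iars (394 CPM), Gmps (235 CPM), Ctps (207 CPM) and Ppat (209 CPM). DON D was the lowest for Pars2 (11.9 CPM), Snhg8 (145 CPM), Bcl2l11 (106 CPM) and Atp2b4 (23.04 CPM). DON A was the highest for Psph (69.9 CPM). Among NoQ libraries, C was the highest for Pax5 (2.37 CPM), Havcr2 (2.10 CPM) and Ccl22 (0.721 CPM) and the lowest for Pes1 (347 CPM). NoQ A was the highest for Rrm2b (20.1 CPM). NoQ D was the highest for Clspn (30.7 CPM) and the lowest for Parp14 (129.6 CPM) and Bhlhe40 (149 CPM).

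The difference between NoQ and DON cells was not the same at 48 h as at 24 h for 7167 genes, 41.5% of those tested for it. Among the 6 leading rises and 6 leading falls, the change from 24 h to 48 h in the log2 fold change was 1.52 for Cth, 1.02 for Slc7a3, -0.79 for Soat2 and -3.09 for Izumo1r among the rises. Among the falls it was 2.16 for Tspan2, 0.91 for Tbc1d4, 2.48 for Tnip3, 3.48 for Ube2c and -1.54 for Rab26os. All of these passed edgeR's quasi-likelihood test of the interaction.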

How the results depend on the processing

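Counts of genes changed between NoQ and DON at 24 h ranged from 3731 higher (library totals only) to 5104 higher (replicate block) and from 4467 to 5749 lower over all alternatives, and none moved by more than 1.5 times. Leaving out 1 library gave 4046 to 4576 higher and 4798 to 5144 lower, and 820 to 928 and 1806 to 1982 at the 2-fold level. At 48 h it gave 5324 to 5506 higher and 5341 to 5412 lower, and for the interaction 3886 to 4108 and 2772 to 2924. With the replicate block, 5104 genes were higher and 5267 lower at 24 h, 883 and 1837 of them at least 2-fold, and 5527 and 5464 at 48 h, and the interaction was called for 7487 genes. Of 150 named genes, the block changed the call between NoQ and DON only for Ppat and, fitted in the 8 libraries alone, also for Gbp11. No named gene that passed in the main fit or in the alternative changed direction between NoQ and DON. Changes of sign in genes that passed in neither were not counted. Gfpt1 and Ifng lost their calls with no low-count filter and with all 52 libraries, and Gzmf without DON C or NoQ C. Scaled by library totals alone, DON over vehicle turned to 0.0395 for Cd274 and 0.0252 for Irf4 (log2), neither passing (adjusted p = 0.613 and 0.65), and the median gene between NoQ and DON moved to -0.09. The interaction of Soat2 did not pass with no low-count filter (-0.77, adjusted p = 0.0647, edgeR). Of 1600 list counts, 61 moved by more than 1.5 times, most of them counts of few genes. With all 52 libraries in the fit, in which 4467 genes were lower in all, 5 purine, 5 BCL2 family and 2 serine and folate genes fell. With no low-count filter, 3 serine and folate genes fell. The causes were not tested. CPM near 0, as for Scd1, Gfpt2 and Havcr2, rest on few counts.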
